A study of Drosophila melanogaster with 10 samples.

Results

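The long noncoding RNAs described here are the rows of the count table whose FlyBase symbol starts with lncRNA: or asRNA: and whose level averaged at least 2 CPM (the count times 1000000 over the library total) over the 10 libraries. Of 17807 genes in the table, 2401 carry such a symbol, 1363 of these had a count in any library, and 60 were expressed at this level, 48 named lncRNA and 12 named asRNA. The set was therefore chosen by level, and levels are given below as a description. The members nearest to the minimum were asRNA:CR44987 at 2.04 CPM and lncRNA:CR44932 at 2.002 CPM, and lncRNA:CR44749 at 1.995 CPM and lncRNA:CR45755 at 1.98 CPM fell just short of it. For 5 of the 60, lncRNA:CR32582, lncRNA:CR45018, lncRNA:CR44932, asRNA:CR45600 and asRNA:CR44987, the libraries of a high group carried the mean over the minimum. Differences between groups were therefore built into the choice of these 5, their values are a description, and counts of calls are also given for the other 55.

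Whole wing imaginal disks of late larvae kept at 25 °C were sequenced in 5 groups of 2 samples, with about 70 disks in a sample. The Nkd transgenes made GFP-tagged protein, namely full-length Nkd (MS1096 > Nkd_GFPC), NkdΔR1S without the Dsh-binding region (MS1096 > Nkd_del_R1S_GFPC), and NkdΔ30aa and NkdΔD6, each without a potential nuclear localization signal (MS1096 > Nkd_del_30aa_GFPC and MS1096 > Nkd_del_D6_GFPC), while the control disks carried GFP alone (MS1096 > GFP). All groups share the driver MS1096-Gal4, which is active mainly in the central pouch, so cells outside it were profiled too. Samples of a group are called biological duplicates, but separate crosses are not stated, nor is the sex of the larvae, and p-values measure the spread between these samples. In whole disks, fewer cells that express a gene cannot be told apart from less RNA per cell.

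Long noncoding RNAs are transcribed and often spliced like mRNAs but encode no known protein. Some act in the nucleus on chromatin or on RNA-binding proteins, some are mainly the host of a small RNA, and some lie antisense to a coding gene or in its intron. In flies the best known are roX1 and roX2, which join the MSL complex on the male X chromosome in dosage compensation, and Hsromega, which organizes nuclear speckles of RNA-binding proteins and accumulates after heat shock. bsAS lies antisense within blistered (bs), the serum response factor gene needed for intervein fate in the wing.

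Each library held 18695697 to 20941842 counts, and the 60 members took 0.151% to 0.231% of them. All 10 wing disk markers (vg, nub, sd, ap, Bx, rn, dve, wg, bs and salm) had counts in every library. Wing disk markers themselves differed between groups, summing to 1477 and 1571 CPM in NkdΔ30aa and 1181 and 1153 CPM in NkdΔD6 disks, against 737 and 988 CPM in GFP disks. Of the 10, edgeR called 1 higher in Nkd, 0 in NkdΔR1S, 7 in NkdΔ30aa and 4 in NkdΔD6 than in GFP disks, and 0 lower in each. Over all genes 3.05%, 0.054%, 18.2% and 10.4% were called higher in these comparisons. The markers are long genes, with 2919 to 8766 exon bases, and these calls were made without the length offset described below. The summed level of 9 salivary gland markers was 15096 CPM in Nkd replicate 1 and 4485 CPM in GFP replicate 1, against 49.1 to 1378 CPM in the other libraries. The 6 fat body markers summed to 3337 and 3147 CPM in the same 2 libraries, against 503 to 2281 CPM in the others. The part of these markers in the results below was not tested. Libraries also differed in how long genes compared with short ones, as the deviation of a library's levels from the mean of all libraries had a rank correlation with exon length, across genes, of 0.67 and 0.62 in NkdΔ30aa and of -0.66 and -0.52 in GFP libraries. The members are short, with a median exon length of 1148 bases against 2020 bases for the genes tested. Counts of members called against GFP are therefore given with and without an offset for exon length. Values of single neighbors, companions and markers are given without it.

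Because many of these genes lie within or across others, it matters what their counts hold. Of 138 genes whose exon bases are all shared with exons of the opposite strand, 0 had a count, and 0 of 386 genes wholly shared with exons of the same strand had one, against 81.5% of 12178 genes that share no exon base. Reads in bases shared with another gene on either strand were thus left out, and the counts of the members come from their unshared exon bases. The counting ignored strand, so reads from an unspliced or antisense transcript that runs across an exon cannot be told apart from reads of the member itself.

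The members were spread over chromosome arms X (13), 2R (13), 3R (12), 3L (11) and 2L (9) and chromosome 4 (2). Of the 60, 33 have 1 exon, and exon length ran from 318 bases in lncRNA:CR43264 to 21710 bases in Hsromega. The span of 38 members overlaps another gene and that of 22 overlaps none. Within exons, 34 members share no base, 26 share some, and 6 share more than 50% of their bases. Overlap with exons of the opposite strand was found for 16 members, among them 11 of the 12 asRNA genes, and overlap on the same strand for 11. Of the 60, 18 lie inside another gene. Examples are lncRNA:CR30055 in Sin3A, which encodes a histone deacetylase corepressor, lncRNA:CR46056 in E2f1, a cell cycle transcription factor gene, and lncRNA:CR44993 in Df31, and none of these 3 shares an exon base with its host.

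Levels were low for most members. The median of the mean levels was 5.25 CPM, against 43.2 CPM for the 7552 genes of the whole table that reached the same minimum. Only 19 members reached 10 CPM and 4 reached 100 CPM, and these 4, lncRNA:CR42862, roX1, lncRNA:CR42491 and lncRNA:CR34335, held 62.9% of the summed level. The 12 asRNA genes had a median of 3.05 CPM and the 48 lncRNA genes one of 6.30 CPM.

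**Figure D1:**
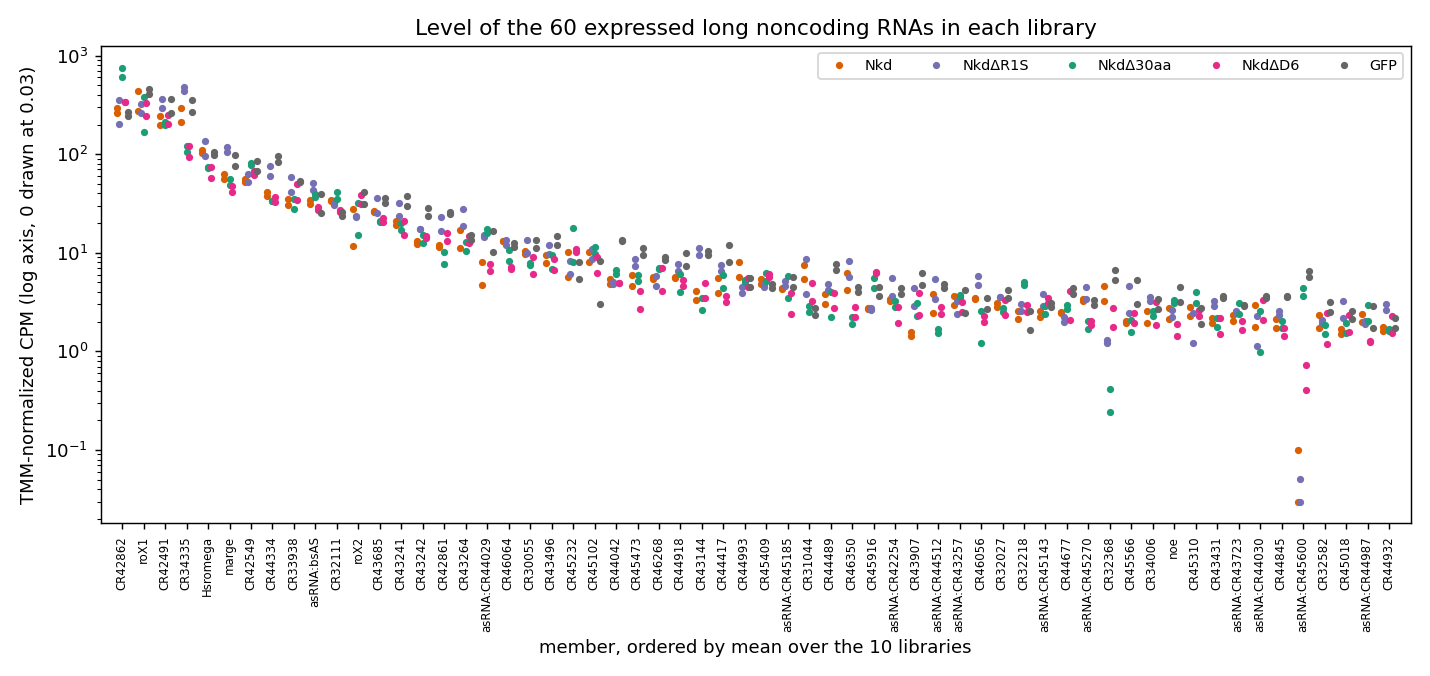
Level of each of the 60 members in each library, as CPM normalized by TMM (trimmed mean of M values) on a log axis, with members ordered by their mean and libraries colored by group (2 points a group). The 4 highest members lie near or above 100 CPM in every library, and asRNA:CR45600 and lncRNA:CR32368 stand out by points far under the rest of their own column.

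Counting only unshared exon bases and dividing by their length changed the order of the levels. On this scale lncRNA:CR42491, at 700.0 CPM per kb, and lncRNA:CR34335, at 686 CPM per kb, came first, followed by lncRNA:CR44334 at 102 and lncRNA:CR33938 at 83.0 CPM per kb. CR42862 had 69.9 CPM per kb and roX1 64.7 CPM per kb, while the very long Hsromega had 4.3 CPM per kb. CR42491 (X: 762615 to 763810, BDGP6) runs within the ribosomal protein gene RpL22 on the same strand, shares 50.5% of its exon bases with it and contains snoRNA:Psi18S-531, a guide for RNA pseudouridylation. CR34335 (X: 3545750 to 3546110) has 1 exon of 361 bases in an intron of DIP-alpha, a cell surface immunoglobulin gene that averaged 2.79 CPM.

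Differences between groups were tested with edgeR's quasi-likelihood test on all 9264 genes that passed its expression filter, and all 60 members were among them. A call for a group against GFP or Nkd needed an adjusted p under 0.05 together with a change of more than 1.5 times in either direction. In the test for any difference among the 5 groups, a call needed only the adjusted p. Levels below are TMM-normalized CPM. A test for any difference among the 5 groups called 23 of the 60 members, against 37.2% of all genes tested, so the share of members, 38.3%, was close to the background. Of the 55 members not carried by a high group, 22 were called. Without NkdΔD6 replicate 1 the test called 14 members and 23.8% of all genes, without NkdΔ30aa replicate 1 it called 9 members and 4.02%, and without NkdΔ30aa replicate 2 it called 1 member and 0.333%. Of the 60, 29 were called in at least 1 comparison with GFP, against 33.3% of all genes. GFP disks had the highest group mean of 30 members and the lowest of 6, against 35.1% and 27.3% of all genes. The ratio of the highest to the lowest group mean had a median of 1.95 and exceeded 2 in 26 members. It was 1.26 for lncRNA:CR45409, the most even member, and 18.3 for lncRNA:CR32368, second to asRNA:CR45600.

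Without a test, the order of the libraries can be read directly. In Nkd disks both libraries lay under both GFP libraries for 39 of the 60 members and above both for 5, against 36.1% and 28.2% of all genes. The counts were 24 under and 12 above in NkdΔR1S disks (26.5% and 20.9% of all genes), 40 under and 7 above in NkdΔ30aa disks (42.4% and 34.6%), and 40 under and 6 above in NkdΔD6 disks (39.5% and 29.0%). GFP libraries are shared by all 4 comparisons, so these counts are not independent between them.

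**Figure D2:**
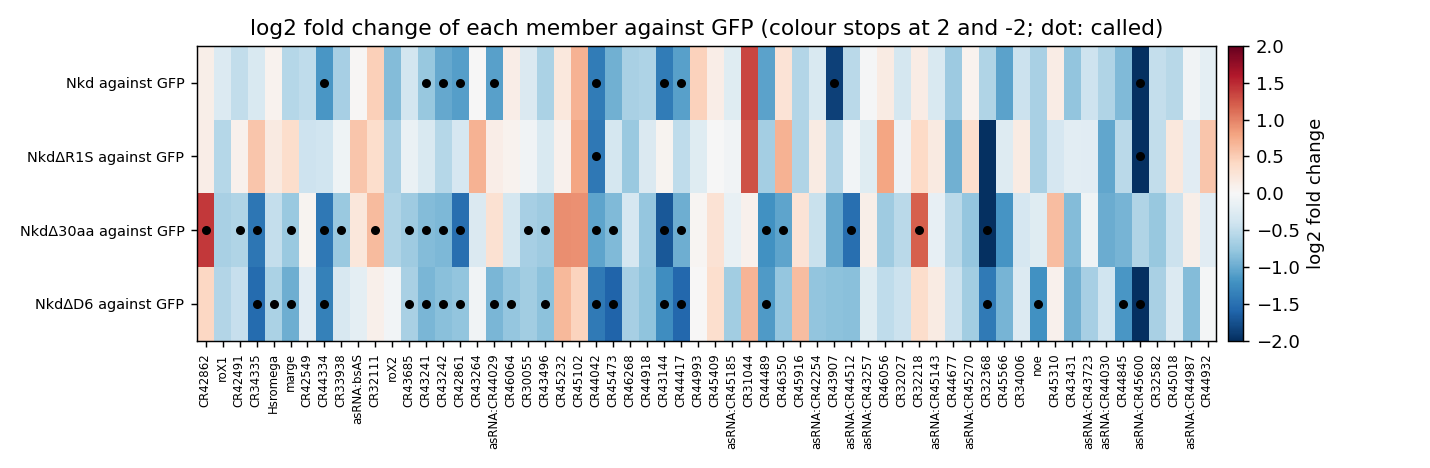
Log2 fold change of each member (columns, ordered by level) in each group that expressed an Nkd form against GFP, in color from -2 (blue) to 2 (red), with a dot where the member was called. Called members are nearly all blue, with 10 lower in Nkd, 2 in NkdΔR1S, 19 in NkdΔ30aa and 20 in NkdΔD6 disks, and the 3 members called higher are all in NkdΔ30aa disks.

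In Nkd disks, 10 members were lower and 0 higher than in GFP disks, where 7.57% of all genes were called, 3.05% higher and 4.51% lower. RLE normalization, the size factors of DESeq2, turned the calls over all genes to 5.36% higher and 2.57% lower (497 and 238 genes, against 283 and 418 with TMM), while 0 members were higher and 7 lower. Without the members that a high group carried over the minimum, 9 of 55 were lower. The median log2 fold change of the members was -0.49, and that of all genes was -0.05. lncRNA:CR44334 (3R: 7312338 to 7312858, 521 bases), which lies 2708 bases from rotund (rn), a zinc finger gene of the pouch, had 38.0 and 41.8 CPM in Nkd disks, against 95.4 and 84.2 CPM in GFP disks. Its log2 fold change was -1.17, with a standard error (SE) of 0.13 and an edgeR adjusted p of 0.0105, and the groups did not overlap.

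Other members lower in Nkd disks were less abundant. lncRNA:CR43144, next to the cullin gene Cul2, had 3.32 and 4.14 CPM in Nkd disks, against 10.4 and 9.42 CPM in GFP disks (log2 fold change -1.41, SE 0.27, edgeR adjusted p = 0.0238). lncRNA:CR43907, which lies 149 bases from the chromatin remodeling gene toutatis (tou), had 1.44 and 1.56 CPM in Nkd disks, against 6.27 and 4.69 CPM in GFP disks (log2 fold change -1.86, SE 0.41, adjusted p = 0.0281). Both libraries of Nkd lay under both of GFP for these 2 members. lncRNA:CR42861, lncRNA:CR43242, lncRNA:CR43241, lncRNA:CR44417, lncRNA:CR44042, asRNA:CR44029 and asRNA:CR45600 were the other members called.

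Calls depended on single libraries, for the members as for all genes. Without GFP replicate 1, 0 members and 0.102% of all genes were called, and without Nkd replicate 2, 0 members and 0.0402%. The counts were 6 members (2 higher and 4 lower) and 5.39% of all genes without GFP replicate 2, and 2 members and 0.578% without Nkd replicate 1. Without NkdΔ30aa replicate 1 it was 1 member and 0.221%, and without NkdΔ30aa replicate 2 it was 1 member and 0.222%. With offsets for exon length 3 members were called, CR44334, CR44029 and CR45600, against 0.604% of all genes, and the members' median became -0.20. Of these, CR45600 was carried over the minimum by a high group.

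In NkdΔR1S disks, 2 members were lower and 0 higher than in GFP disks, where 0.173% of all genes were called, 0.054% higher and 0.119% lower. They were asRNA:CR45600, which a high group carried over the minimum, and lncRNA:CR44042, the 1 called member of the other 55. CR44042 (2R: 1348167 to 1349167, 1001 bases) had 4.86 and 5.11 CPM in NkdΔR1S disks, against 13.3 and 13.4 CPM in GFP disks (log2 fold change -1.42, SE 0.20, edgeR adjusted p = 0.0384). It was also the only member called lower in all 4 comparisons with GFP, at 4.81 and 5.36 CPM in Nkd, 6.72 and 6.14 CPM in NkdΔ30aa, and 4.99 CPM in both NkdΔD6 libraries. So the 8 libraries with an Nkd transgene lay between 4.81 and 6.72 CPM, under both GFP libraries. Since the GFP libraries are shared, the 4 comparisons are not independent. The median log2 fold change of the members in NkdΔR1S disks was -0.18, against -0.03 for all genes. At most 1 of the 2 calls remained when any library of GFP, Nkd, NkdΔR1S, NkdΔ30aa or NkdΔD6 was left out, and over all genes these runs called 2 to 14 genes in place of 16. CR44042 was not called with length offsets (-1.26). With the replicate number as a block, 0 members and 0.119% of all genes were called, though the labels state no pairing.

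lncRNA:CR32368 had a large difference in NkdΔR1S disks that was not called. It had 1.30 and 1.23 CPM there, against 6.66 and 5.36 CPM in GFP disks, a log2 fold change of -2.24 with an adjusted p of 0.133 from edgeR.

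NkdΔ30aa disks had the most calls, with 3 members higher and 19 lower than in GFP disks. Among all genes 31.0% were called, 18.2% higher and 12.8% lower, and 36.7% of the members were called, with 19 of the 22 calls lower. Their median log2 fold change was -0.60, against -0.13 for all genes.

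lncRNA:CR32368 (3L: 7915437 to 7915846, 410 bases, between Tmem43 and syd) was nearly lost in NkdΔ30aa disks. It had 0.24 and 0.42 CPM there, against 6.66 and 5.36 CPM in GFP disks (log2 fold change -4.16, SE 0.47, edgeR adjusted p = 0.000983). Of its neighbors, Tmem43 was not called (-0.47) and syd, which encodes a kinesin adaptor, was higher (0.84, adjusted p = 0.0018).

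Among the abundant members, CR34335 had 121 and 106 CPM in NkdΔ30aa disks, against 352 and 267 CPM in GFP disks (log2 fold change -1.45, SE 0.20, edgeR adjusted p = 0.00128). CR44334 had 33.4 and 33.3 CPM in NkdΔ30aa disks, against 95.4 and 84.2 CPM in GFP disks (log2 fold change -1.43, SE 0.13, adjusted p = 0.000983). Neither member had overlapping libraries between these groups. CR42861 (X: 13744928 to 13745476), 549 bases between Grip91 and Pdcd4, had 10.1 and 7.62 CPM in NkdΔ30aa disks, against 24.6 and 25.7 CPM in GFP disks (log2 fold change -1.5, SE 0.20, adjusted p = 0.00114). asRNA:CR44512, antisense to the glucose-6-phosphate dehydrogenase gene Zw, had 1.68 and 1.53 CPM in NkdΔ30aa disks, against 4.77 and 4.43 CPM in GFP disks (log2 fold change -1.51, adjusted p = 0.0109). CR43144 had a log2 fold change of -1.69 (adjusted p = 0.00192).

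The members higher in NkdΔ30aa disks were lncRNA:CR42862, lncRNA:CR32111 and lncRNA:CR32218. CR42862 (3L: 224106 to 230964) had 755 and 612 CPM in NkdΔ30aa disks, against 244 and 266 CPM in GFP disks (log2 fold change 1.42, SE 0.24, edgeR adjusted p = 0.00228). It was the highest of the 60 members in this group, and in the other groups its libraries lay between 202 and 356 CPM. CR32111, which lies 6135 bases from the Iroquois gene caupolican (caup), had 41.2 and 35.5 CPM in NkdΔ30aa disks, against 23.6 and 25.8 CPM in GFP disks (log2 fold change 0.64, SE 0.11, adjusted p = 0.00221). CR32218 had 4.75 and 5.02 CPM in NkdΔ30aa disks, against 1.66 and 2.57 CPM in GFP disks (log2 fold change 1.20, adjusted p = 0.0214). It lies inside Mi-2 and Su(Tpl), a chromatin remodeler gene and an elongation factor gene that were both higher as well (1.45 and 1.40).

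Of these 22 calls, 9 held when each of the 10 libraries was left out in turn, namely CR42862, CR34335, CR44334, lncRNA:CR43685, CR43242, CR42861, CR44042, CR43144 and CR32368. Members called numbered 10 without GFP replicate 1 (21.8% of all genes), 14 without NkdΔ30aa replicate 1 (24.5%) and 13 without NkdΔ30aa replicate 2 (22.9%). With length offsets 7 were called, 6 of them among the 22, against 9.65% of all genes, and the median of the members became -0.26. CR42862 (0.53) and CR32111 (-0.20) were not called then, whereas CR32368 (-3.30), CR43144 (-0.90), CR42861 (-0.73), CR44334 (-0.62), CR34335 (-0.61) and CR32218 (1.66) were.

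In NkdΔD6 disks, 20 members were lower and 0 higher than in GFP disks, where 16.2% of all genes were called, 10.4% higher and 5.81% lower. Of the 55 members not carried by a high group, 19 were lower. The median log2 fold change of the members was -0.66, against -0.10 for all genes. Of the 20, 14 were also lower in NkdΔ30aa disks, in comparisons that share the GFP libraries. This overlap was not counted over all genes, so it cannot be read as particular to the members.

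CR34335 had 92.8 and 120 CPM in NkdΔD6 disks, against 352 and 267 CPM in GFP disks (log2 fold change -1.54, SE 0.21, edgeR adjusted p = 0.00868). CR44334 had 32.8 and 37.2 CPM in NkdΔD6 disks, against 95.4 and 84.2 CPM in GFP disks (log2 fold change -1.36, SE 0.13, adjusted p = 0.00654). In neither case did the libraries overlap. lncRNA:CR45473, which lies between RhoGAP1A and tyn on X, had 2.68 and 4.12 CPM in NkdΔD6 disks, against 11.2 and 9.42 CPM in GFP disks (log2 fold change -1.60, SE 0.29, adjusted p = 0.0106). lncRNA:CR44417, inside Mapmodulin on the other strand, had 3.14 and 3.61 CPM in NkdΔD6 disks, against 12.1 and 8.03 CPM in GFP disks (log2 fold change -1.57, SE 0.31, adjusted p = 0.0124). For these 2 members, both NkdΔD6 libraries lay under both GFP libraries. Members lower in NkdΔD6 disks and called in no other comparison with GFP were Hsromega (-0.63), lncRNA:CR46064 (-0.77), lncRNA:noe (-1.20) and lncRNA:CR44845 (-1.17).

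Without GFP replicate 1, 0 members and 8 of 9801 genes (0.0816%) were called in NkdΔD6 disks, and without NkdΔD6 replicate 1, 0 members and 0 of 9916 genes. Leaving out any other library left fewer members called and a smaller share of all genes, and a member was higher only without GFP replicate 2. RLE normalization gave 13 calls, all lower, where 11.8% of all genes were higher and 3.45% lower (1090 and 320 genes, against 959 and 538 with TMM). No expression filter gave 12 (8.97% of the 14420 genes with a count). Length offsets gave 9 (5.87% of all genes), with a median of -0.35. CR34335, CR44334, CR44042, CR45473, CR44417, CR46064 and CR45600 were called under all 5 alternatives of normalization, filter, tool, block and length. For CR45600, which a high group carried over the minimum, this is a description.

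**Figure D3:**
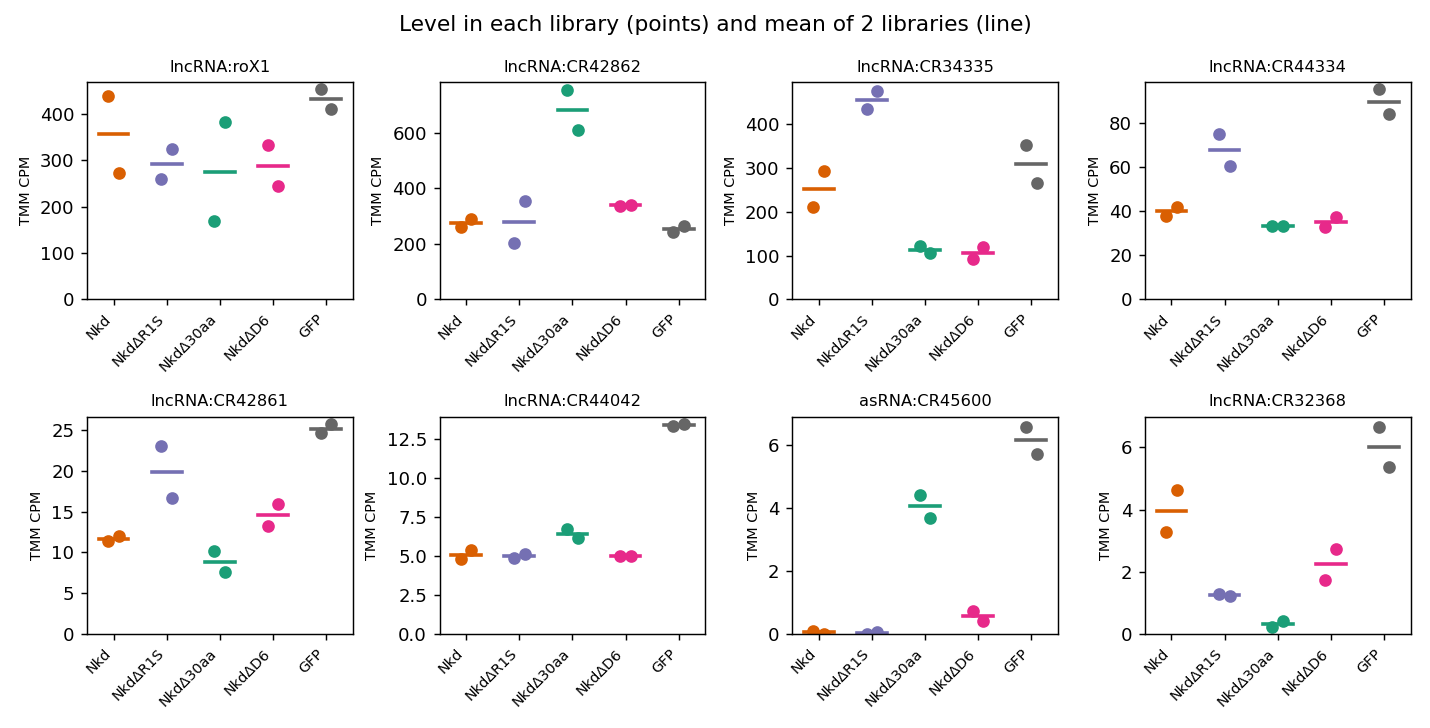
TMM-normalized CPM of 8 members in each library (points) with the mean of the 2 libraries of a group (line), on axes that start at 0. CR44042 and CR44334 are highest in both GFP libraries, CR42862 is highest in NkdΔ30aa, CR34335 is lowest in NkdΔ30aa and NkdΔD6, and the libraries of roX1 overlap between Nkd and GFP.

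The deletion forms were also set against full-length Nkd. In NkdΔR1S disks 0 members were called against Nkd, where 0.184% of all genes were called. DESeq2 called 6 members there, against 250 genes, which are 1.4% of all 17807 genes of the table. That base includes genes without a count, whereas the edgeR shares are over the 9264 genes tested. In NkdΔD6 disks 0 members were called against Nkd, where 0.13% of all genes were called. With DESeq2 it was 4 members, against 110 genes or 0.618% of the whole table.

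NkdΔ30aa disks had 3 members higher and 3 lower than Nkd disks, where 6.68% of all genes were called, 5.86% higher and 0.82% lower. Leaving out CR45600, which a high group carried over the minimum, 2 were higher and 3 lower. CR32368 had 0.24 and 0.42 CPM in NkdΔ30aa disks, against 3.27 and 4.63 CPM in Nkd disks (log2 fold change -3.56, SE 0.46, edgeR adjusted p = 0.0175). CR34335 was lower, with 121 and 106 CPM in NkdΔ30aa disks, against 211 and 293 CPM in Nkd disks (log2 fold change -1.15, SE 0.20, adjusted p = 0.0295). For both, the 2 groups did not overlap. lncRNA:CR46350 had 2.21 and 1.91 CPM in NkdΔ30aa disks, against 4.21 and 6.19 CPM in Nkd disks (log2 fold change -1.34, adjusted p = 0.0475). CR42862 (1.31, adjusted p = 0.0295) and CR45600 were higher.

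asRNA:CR44029 completed this set. It covers 5379 exon bases on chromosome 4 from 879374 to 884752, antisense to unc-13, a gene of synaptic vesicle priming. It had 17.5 and 15.9 CPM in NkdΔ30aa disks, against 4.76 and 7.99 CPM in Nkd disks (log2 fold change 1.39, SE 0.30, edgeR adjusted p = 0.0341). unc-13 was itself higher in NkdΔ30aa disks by 1.16 (adjusted p = 0.0295), and 13.1% of the exon bases of CR44029 are shared with it. No member of this comparison held its call in every run that left out a library, and each such run left 1 sample in a group. All calls of members ended without either NkdΔ30aa library, as did nearly all calls over all genes. Fewer members were called without either Nkd library, GFP replicate 2 or either NkdΔD6 library, and a smaller share of all genes as well. Under all 5 alternatives only CR32368 and CR45600 remained. For CR45600 this is a description, as its difference follows in part from the choice of members.

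asRNA:CR45600 had the widest range of group means, but it reached the minimum of 2 CPM only through its GFP and NkdΔ30aa libraries, so its differences follow in part from the choice of members and are given as a description. It covers 2914 exon bases on 3R from 15136985 to 15140121, of which 63.7% are shared with other genes, and contains CG3984, so its counts come from 1059 unshared bases. It had 0.10 and 0.00 CPM in Nkd, 0.00 and 0.05 CPM in NkdΔR1S, 4.41 and 3.67 CPM in NkdΔ30aa, and 0.72 and 0.41 CPM in NkdΔD6 disks, against 6.54 and 5.72 CPM in GFP disks. In counts, this is 2 in Nkd, 1 in NkdΔR1S, 171 in NkdΔ30aa and 22 in NkdΔD6 disks, against 229 in GFP disks, each summed over 2 libraries. The groups thus split into those with counts close to 0 and those with several CPM, with NkdΔD6 in between.

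From the summed counts, the ratio to GFP disks was 0.00804 in Nkd, 0.00439 in NkdΔR1S and 0.092 in NkdΔD6 disks. NkdΔ30aa disks had 82.1 times the level of Nkd disks. These ratios of asRNA:CR45600 carry no measure of the spread between samples and follow in part from the choice of members. CG6912, an adjoining gene on the same strand that shares 20 exon bases with it, followed a like pattern, with 0.50 and 0.00 CPM in Nkd, 0.45 and 0.26 CPM in NkdΔR1S, 6.14 and 4.69 CPM in NkdΔ30aa, and 1.29 and 1.07 CPM in NkdΔD6 disks, against 6.43 and 5.77 CPM in GFP disks. It was called lower in Nkd disks (adjusted p = 0.0301). The third measurable gene there, CG3987, had a different pattern, and its libraries overlapped between Nkd and GFP disks. Each transgene was a separate line, so the transgene and the rest of a line's genotype cannot be told apart.

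The roX RNAs were among the more abundant members and varied widely between replicates. roX1 (X: 3857230 to 3862697) had 439 and 272 CPM in Nkd, 260 and 324 CPM in NkdΔR1S, 169 and 382 CPM in NkdΔ30aa, and 332 and 244 CPM in NkdΔD6 disks, against 454 and 410 CPM in GFP disks. roX2 (X: 11579065 to 11580432) had 28.1 and 11.8 CPM in Nkd, 22.9 and 23.5 CPM in NkdΔR1S, 15.3 and 32.4 CPM in NkdΔ30aa, and 38.6 and 31.1 CPM in NkdΔD6 disks, against 41.4 and 31.3 CPM in GFP disks. Within each of the groups Nkd and NkdΔ30aa, roX1 and roX2 were high in the same library and low in the same other library.

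No comparison called either roX gene. The log2 fold changes of roX1 against GFP were -0.28 in Nkd, -0.56 in NkdΔR1S, -0.65 in NkdΔ30aa and -0.58 in NkdΔD6 disks, each with a standard error of 0.40, so differences of this size were not detectable at this spread. The share of male larvae in a sample is not stated, and its part in these values was not tested. Of 7 protein genes of dosage compensation (msl-1, msl-2, msl-3, mle, mof, Clamp and Sxl), 0 were called in Nkd or NkdΔR1S disks. In NkdΔ30aa disks 2 were higher, msl-1, the scaffold of the MSL complex (1.35, adjusted p = 0.00149), and mle, a helicase that remodels roX RNA (0.81, adjusted p = 0.00554). msl-1 was the only one higher in NkdΔD6 disks (1.02, edgeR adjusted p = 0.0126). Over all genes 3.05% were called higher in Nkd, 0.054% in NkdΔR1S, 18.2% in NkdΔ30aa and 10.4% in NkdΔD6 disks. msl-1 and mle are long, with 5021 and 4641 exon bases, and their values are without the length offset. Whether this list differs from other genes was not tested.

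Hsromega (3R: 21296127 to 21317836) had 109 and 103 CPM in Nkd, 135 and 95.1 CPM in NkdΔR1S, 72.2 and 73.3 CPM in NkdΔ30aa, and 57.5 and 73.3 CPM in NkdΔD6 disks, against 105 and 97.4 CPM in GFP disks. All libraries of NkdΔ30aa and NkdΔD6 lay under both GFP libraries, and those of Nkd and NkdΔR1S did not. Only the difference in NkdΔD6 disks was called (-0.63, SE 0.17, edgeR adjusted p = 0.0285), and it held in 1 of 10 runs that left out a library. Hsromega is the longest member, and with length offsets it was called lower in NkdΔ30aa disks as well, while its log2 fold change in NkdΔD6 disks became -1.83.

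Members that host small RNAs were of various levels. Hsromega spans mir-4951, lncRNA:CR31044 spans mir-279 and mir-996, and lncRNA:CR45916 spans mir-9a, a regulator of sensory organ number at the wing margin. The 4 miRNA genes lie wholly in exons of their hosts and had 0 counts, as the counting leaves out shared bases, so the hosts are measured but the miRNAs are not. CR31044 had 7.49 and 5.36 CPM in Nkd, 8.58 and 3.78 CPM in NkdΔR1S, 2.50 and 2.88 CPM in NkdΔ30aa, and 4.89 and 3.26 CPM in NkdΔD6 disks, against 2.77 and 2.32 CPM in GFP disks. It was not called in any comparison (1.33 in Nkd disks, edgeR adjusted p = 0.0655), although both libraries of Nkd, of NkdΔR1S and of NkdΔD6 exceeded both GFP libraries. CR45916 had 6.38 and 6.21 CPM in NkdΔD6 disks, against 3.66 and 4.53 CPM in GFP disks, and was not called there (0.62, adjusted p = 0.125), but it was called in the test for any difference (adjusted p = 0.025).

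The snoRNA host CR42491 had 198 and 245 CPM in Nkd, 367 and 297 CPM in NkdΔR1S, 211 and 199 CPM in NkdΔ30aa, and 202 and 249 CPM in NkdΔD6 disks, against 361 and 261 CPM in GFP disks. It was lower in NkdΔ30aa disks (-0.60, adjusted p = 0.0309), a call that ended without GFP replicate 1, NkdΔR1S replicate 2 or either NkdΔ30aa library, and the sign turned with length offsets (0.10). RpL22, which encloses it, was higher in the same disks (1.16, adjusted p = 0.00203), and snoRNA:Psi18S-531 within it was not called (-0.53). Of 8 genes of snoRNP proteins, 7 matched the table. nop5, a core box C/D protein gene, was higher in Nkd (0.65) and NkdΔ30aa disks (0.61), and hoip (-0.65) and Nop10 (-0.80), of box C/D and box H/ACA snoRNPs, were lower in NkdΔ30aa disks. In NkdΔR1S and NkdΔD6 disks 0 of the 7 were called. Over all genes 7.57% were called in Nkd, 0.173% in NkdΔR1S, 31.0% in NkdΔ30aa and 16.2% in NkdΔD6 disks.

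bsAS (2R: 24351477 to 24369689) lies wholly inside bs on the other strand and shares no exon base with it. It had 31.1 and 34.5 CPM in Nkd, 43.7 and 50.7 CPM in NkdΔR1S, 36.5 and 39.2 CPM in NkdΔ30aa, and 26.9 and 29.3 CPM in NkdΔD6 disks, against 25.1 and 39.3 CPM in GFP disks. No comparison called it, and only NkdΔR1S libraries exceeded both GFP libraries (0.55, adjusted p = 0.199). bs had 81.1 and 87.1 CPM in NkdΔ30aa disks, against 38.3 and 58.3 CPM in GFP disks, and was higher there (0.80, adjusted p = 0.0137), while bsAS had 0.23.

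lncRNA:marge (3L: 14976626 to 14977631), which lies 585 bases from the Bearded family gene Ocho, had 55.8 and 62.5 CPM in Nkd, 105 and 118 CPM in NkdΔR1S, 56.5 and 48.3 CPM in NkdΔ30aa, and 41.2 and 47.7 CPM in NkdΔD6 disks, against 76.8 and 98.2 CPM in GFP disks. It was lower in NkdΔ30aa (-0.74, adjusted p = 0.004) and NkdΔD6 disks (-0.98, adjusted p = 0.00898) and was not called with length offsets (-0.19 and -0.61). Ocho was not called in any of the 4 comparisons with GFP.

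Among the other members, lncRNA:CR42549, in a gene region of mura, had 80.8 and 77.2 CPM in NkdΔ30aa disks, against 67.1 and 85.8 CPM in GFP disks, although mura itself was higher (1.47, adjusted p = 0.00133). lncRNA:CR33938, among the Ccp84 larval cuticle genes, which averaged 0.06 CPM or less beside it, had 27.8 and 35.3 CPM in NkdΔ30aa disks, against 53.6 and 51.9 CPM in GFP disks (-0.74, adjusted p = 0.0242). That call ended without either GFP library or NkdΔ30aa replicate 1, and its sign turned with length offsets (0.072). lncRNA:noe, inside the transporter-like gene blot, had 1.90 and 1.42 CPM in NkdΔD6 disks, against 4.55 and 3.14 CPM in GFP disks (-1.20, adjusted p = 0.0422), and this call held in 0 of 10 runs that left out a library.

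Exon length differed between members called in the 2 directions. In NkdΔ30aa disks the median exon length was 5214 bases for the 3 members called higher, 747 bases for the 19 called lower and 1370 bases for the 38 not called. Genes of the whole table showed the same order, with medians of 5068 bases for those called higher and 978 bases for those called lower. In Nkd disks the 10 members called lower had a median of 915 bases, and in NkdΔD6 disks the 20 called lower had one of 1000 bases.

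**Figure D4:**
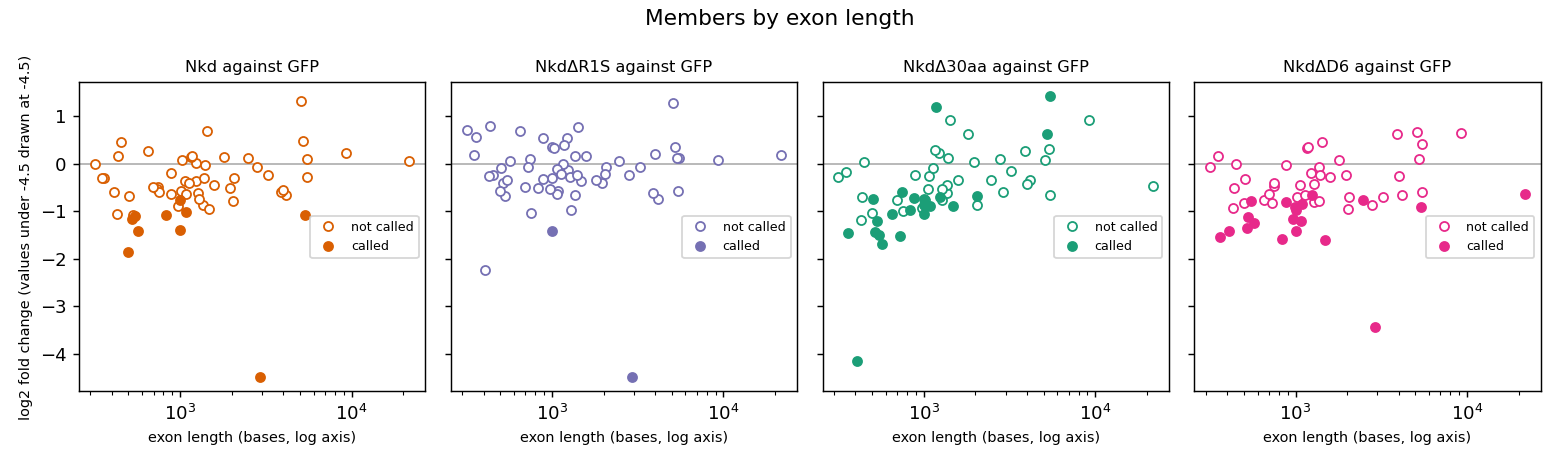
Log2 fold change against GFP of each member (y axis) by its exon length in bases (x axis, log scale) in the 4 groups with an Nkd transgene, with filled points for called members. In NkdΔ30aa disks the members called lower lie mostly to the left, with a median of 747 bases, and those called higher have a median of 5214 bases.

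Genes whose span overlaps a member had positive median fold changes where the members had negative ones, a contrast that became small with length offsets except in NkdΔD6 disks. Of 38 overlapping genes that could be tested, 3 were higher and 2 lower in Nkd, 0 were called in NkdΔR1S, 19 were higher and 0 lower in NkdΔ30aa, and 10 were higher and 0 lower in NkdΔD6 disks. Over all genes 18.2% were higher and 12.8% lower in NkdΔ30aa, and 10.4% and 5.81% in NkdΔD6 disks. On the log2 scale the medians of the overlapping genes were 0.15 in Nkd, 0.10 in NkdΔR1S, 0.60 in NkdΔ30aa and 0.35 in NkdΔD6 disks, where the members of the same pairs had -0.33, -0.16, -0.49 and -0.67. The overlapping genes are long, with a median of 3831 exon bases, and with length offsets 2 were higher and 3 lower in NkdΔ30aa and in NkdΔD6 disks alike. Their medians then became -0.10 in Nkd, 0.01 in NkdΔR1S, 0.07 in NkdΔ30aa and 0.04 in NkdΔD6 disks, where the members of the pairs had -0.13, -0.12, -0.08 and -0.36. In NkdΔ30aa disks, members called lower made up 8 of these pairs, and the overlapping gene was higher in 5 of them, not called in 3 and lower in 0.

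DIP-alpha and CR34335 are such a pair, as DIP-alpha had 5.57 and 4.04 CPM in NkdΔ30aa disks, against 2.44 and 1.49 CPM in GFP disks, and was higher (1.29, adjusted p = 0.0367). ec, a ubiquitin protease gene whose exons share 7.17% of those of roX1, was higher in Nkd (0.65), NkdΔ30aa (1.5) and NkdΔD6 disks (0.92), where roX1 was not called. CG6912 with CR45600 in Nkd disks was the only overlapping pair in which both were lower.

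In Nkd, NkdΔ30aa and NkdΔD6 disks, members with no shared exon base were called more often than those with shared bases. In NkdΔ30aa disks 18 of the 34 members with no shared exon base were called, against 4 of the 26 with shared bases and 31.0% of all genes. In NkdΔD6 disks the counts were 14 of 34 and 6 of 26, against 16.2% of all genes, and in Nkd disks 7 of 34 and 3 of 26, against 7.57%. Among the 12 asRNA genes 2 were called in Nkd, 1 in NkdΔR1S, 1 in NkdΔ30aa and 2 in NkdΔD6 disks. Over all genes the shares were 7.57%, 0.173%, 31.0% and 16.2%. asRNA:CR45600, which a high group carried over the minimum, is among those in Nkd and NkdΔD6 disks and the only 1 in NkdΔR1S disks. It is also among the called members with shared bases in Nkd and NkdΔD6 disks, so its part in these counts is a description. No test was made of the differences between these classes of members.

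**Figure D5:**
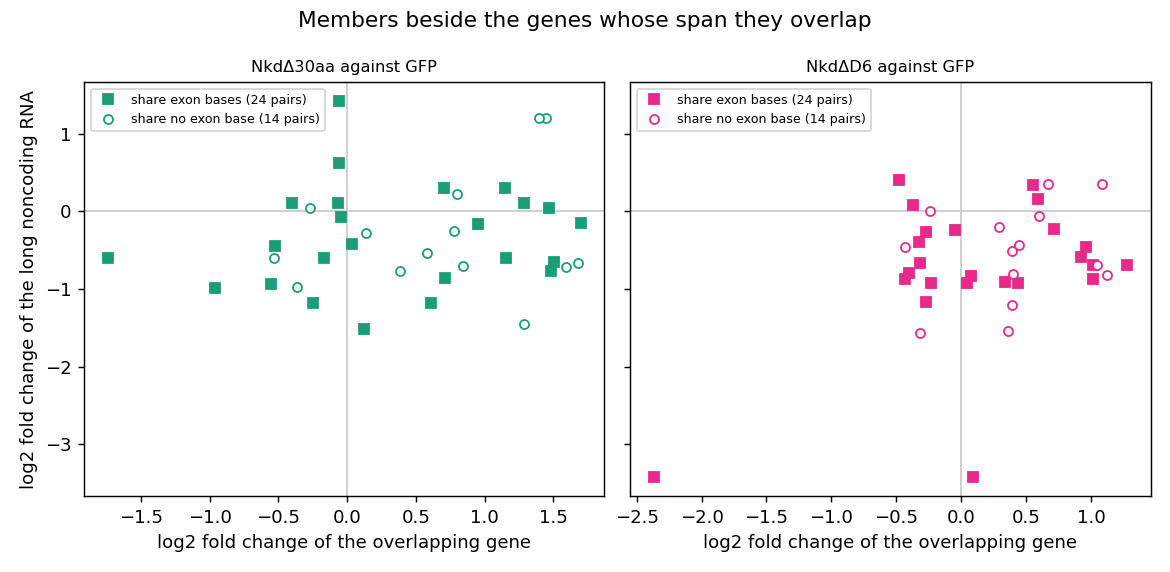
Log2 fold change against GFP of each member (y axis) and of a gene whose span it overlaps (x axis) in NkdΔ30aa (left) and NkdΔD6 disks (right), with filled squares for pairs that share exon bases and open circles for those that share none. Of the 38 overlapping genes shown, 19 were called higher in NkdΔ30aa and 10 in NkdΔD6 disks, and most points lie right of 0 on the x axis and under 0 on the y axis.

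Nearest genes that do not overlap a member were also paired with it. Members called lower made up 14 such pairs in Nkd, 4 in NkdΔR1S, 26 in NkdΔ30aa and 30 in NkdΔD6 disks. The neighbor was higher in 0, 0, 4 and 2 of these and lower in 1, 0, 3 and 3. Over all genes 4.51%, 0.119%, 12.8% and 5.81% were lower. CR44042 had a neighbor that was lower on each side, as it lies 224 bases from l(2)41Ab and 3047 bases from Yeti in 2R. l(2)41Ab had 4.51 and 5.26 CPM in Nkd, 4.46 and 4.45 CPM in NkdΔR1S, 6.19 and 6.37 CPM in NkdΔ30aa, and 4.32 and 5.34 CPM in NkdΔD6 disks, against 10.5 and 11.7 CPM in GFP disks. It was lower in Nkd (-1.18), NkdΔ30aa (-0.82) and NkdΔD6 disks (-1.20) and not called in NkdΔR1S disks (-1.31, adjusted p = 0.101). Yeti, a chromatin protein gene, was lower in NkdΔ30aa (-0.83) and NkdΔD6 disks (-0.70). The other pairs in which both were lower were CR43242 with Spf45 in NkdΔ30aa disks and CR44845 with CG5727 in NkdΔD6 disks.

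Some members lie near patterning genes. rn had 103 and 127 CPM in NkdΔ30aa disks, against 28.9 and 49.6 CPM in GFP disks, and was higher (1.55, adjusted p = 0.00218), as it was in NkdΔD6 disks (1.23), where CR44334 was lower. lncRNA:CR34006 lies 22036 bases from Serrate (Ser), a Notch ligand gene that was higher in Nkd (0.70), NkdΔ30aa (1.10) and NkdΔD6 disks (1.08), and was itself not called, at 1.85 and 3.20 CPM in NkdΔD6 disks, against 2.72 and 3.40 CPM in GFP disks. CR44932 lies 124 bases from the Hox gene Antp, which was higher in Nkd (0.67) and NkdΔ30aa disks (0.71), and CR44932 was called in no comparison. caup, beside CR32111, had a change of the same sign as CR32111 in NkdΔ30aa disks (0.58) but was not called, as its fold change stayed under 1.5. The changes in this paragraph are without length offsets, and rn and Antp are long, with 6273 and 7508 exon bases.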

How the data were processed

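Values are raw counts per gene that the authors deposited, made with HISAT2 2.2.1 on BDGP6 and featureCounts, whose version and settings are not given in the sources. The table also holds exon coordinates. RNA came from 2 samples in each of 5 groups. A single edgeR 4.0.16 fit (R 4.3.3) with TMM, filterByExpr and the robust quasi-likelihood test had group as its factor, 5 residual and 3.41 (median) prior degrees of freedom, and a square root of the common dispersion of 0.291. P-values were adjusted by Benjamini-Hochberg over 9264 genes. The SE is the log2 fold change over the square root of F. Symbols matched 17710 of 17807 IDs. The code was tested on simulated data.

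Members, lists and tests were chosen with earlier results of these data known. Named genes are the 10 highest members, the 5 largest called changes in each direction against GFP or 3 against Nkd without overlap, RNAs whose symbol is no CR number, companions or neighbors of these, and members next to the level minimum. Other members, such as the miRNA hosts, were named after their values were seen. Alternatives were RLE, no filter, DESeq2 1.42.0, the replicate number as a block, offsets for a lowess trend on exon length (span 0.3), the adjusted p alone, and leaving out each library. Sequences were not used here.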

Additional observations from a re-analysis of the deposited data

How the results depend on the processing

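Depth was ample for the abundant members, and the 2 libraries of a group set the precision. With length offsets 10 members were called for any difference (23 without offsets), against 1110 of 9264 genes (3447 without). Against GFP the members called numbered 3 for Nkd (10 without offsets), 1 for NkdΔR1S (2), 7 for NkdΔ30aa (22) and 9 for NkdΔD6 (20). The shares of all genes with offsets were 0.604%, 0.216%, 9.65% and 5.87%. Against Nkd it was 2 for NkdΔ30aa (6 without offsets) and 1 for NkdΔD6 (0), with 0.939% and 0.313% of all genes. CR45600, which a high group carried over the minimum, was the 1 member called in NkdΔR1S disks. It was also among those called in Nkd and NkdΔD6 disks against GFP and in NkdΔ30aa disks against Nkd. RLE normalization gave 1 member for NkdΔR1S (0.162% of all genes) and 13 for NkdΔD6 (15.2%) against GFP. It turned the calls over all genes in Nkd disks to 497 higher and 238 lower, from 283 and 418 with TMM, while the members stayed at 0 higher and 7 lower. No filter gave 1 for NkdΔR1S (0.118% of the 14420 genes with a count) and 12 for NkdΔD6 (8.97%) against GFP. Against Nkd it gave 2 for NkdΔR1S (0.326%), 3 for NkdΔ30aa (1.07%) and 1 for NkdΔD6 (0.236%). DESeq2 gave 4 for NkdΔR1S against GFP (2.14% of all 17807 genes), and 6 for NkdΔR1S (1.4%) and 4 for NkdΔD6 (0.618%) against Nkd. These shares are over the whole table, with genes that have no count, so they are low beside the edgeR shares.

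Leaving out 1 library gave 1 to 22 members for any difference, 0 to 9 for Nkd, 0 to 1 for NkdΔR1S, 10 to 23 for NkdΔ30aa and 0 to 13 for NkdΔD6 against GFP, and 0 for NkdΔR1S, 0 to 6 for NkdΔ30aa and 0 for NkdΔD6 against Nkd. With the length offsets CR42491 (0.10), CR33938 (0.072) and CR32111 (-0.20) changed sign in NkdΔ30aa against GFP. The cause of these changes was not tested. Same-numbered samples deviated together by a correlation over 0.1 in 5 of 10 pairs of groups (-0.22 to 0.37 over the pairs), so a pairing was not shown, and the labels state none. With the replicate block 22 members were called for any difference, and 34.2% of all genes. Against GFP it was 8 for Nkd, 0 for NkdΔR1S (the calls of CR44042 and CR45600 ended), 20 for NkdΔ30aa and 16 for NkdΔD6. The shares of all genes were 6.58%, 0.119%, 31.0% and 15.9%. Against Nkd 0, 5 and 0 were called for NkdΔR1S, NkdΔ30aa and NkdΔD6, with 0.13%, 7.28% and 0.0864% of all genes.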
